A study of Mus musculus with 6 samples.

Results

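The voltage-gated calcium channel subunits of the CM were followed here as 10 genes of the 54532 in the count table, namely the L-type pore genes *Cacna1c*, *Cacna1d* and *Cacna1s*, the T-type pore genes *Cacna1g* and *Cacna1h*, the beta subunit genes *Cacnb1*, *Cacnb2* and *Cacnb3*, and the alpha2delta subunit genes *Cacna2d1* and *Cacna2d2*. The members were chosen by name, with earlier results of these libraries known, and no cutoff on their values was recorded, so that their levels, changes and calls are given as a description. All 10 were found by Ensembl ID and symbol, and all 10 passed the filter on low counts.

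A voltage-gated calcium channel opens when the membrane depolarises and lets calcium into the cell. The alpha1 subunit forms the pore, the beta subunit sits on its inner face and brings it to the membrane, and the alpha2delta subunit is anchored on the outside and raises the current. In ventricular CMs the L-type pore encoded by *Cacna1c* faces the ryanodine receptor RYR2 of the sarcoplasmic reticulum in the dyad and triggers calcium release, whereas in skeletal muscle the pore encoded by *Cacna1s* faces RYR1 in the triad and serves as its voltage sensor. T-type pores open at lower voltages and are known from the immature heart and from pacemaker cells.

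Poly-A RNA of CM nuclei was sequenced from wildtype ICR mice that had received 1e+11 viral genomes of AAV9 under the skin at 6 d of age and whose hearts were collected at 9 d. The viruses carried cTnT-GFP, cTnT-YAP6SA or cTnT-YAP5SA, in which the cardiac troponin T promoter limits expression of GFP or of a YAP variant to CMs, and all 3 groups shared the injection, the vector and the cardiac promoter. Nuclei were enriched with an antibody to PCM1, and each of the 3 groups had 2 libraries, 1 in each of 2 batches. Neither a group without virus nor the share of transduced CMs was analysed here, and *Yap1* itself was at 139 and 130 CPM in GFP, 122 and 130 CPM in YAP6SA and 138 and 102 CPM in YAP5SA libraries. A rise of the mouse gene *Yap1* over GFP was therefore not seen in these counts (log2 fold change -0.09 with YAP6SA and -0.17 with YAP5SA, edgeR quasi-likelihood FDR 0.952 and 0.495). Whether reads of the viral YAP sequence are counted in this gene was not tested, so that its counts do not measure the transgenes. The study showed both Flag-tagged YAP variants as protein in hearts after AAV9 delivery, by western blot and immunofluorescence. In the counts used here the groups rest on their labels.

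Libraries held 14552847 to 19615627 counts on genes. Levels are given in CPM, which are counts scaled to a common library size after TMM correction, and a gene with a count of 0 could have up to 3 counts, or 0.153 to 0.206 CPM, by counting error alone. All 8 CM markers were detected in every library, and their summed level was 46270 and 62562 CPM in GFP, 43523 and 56426 CPM in YAP6SA and 38110 and 27259 CPM in YAP5SA libraries. Without *Myh6*, the other 7 summed to 28365 and 34521 CPM in GFP, 27097 and 34461 CPM in YAP6SA and 25018 and 18589 CPM in YAP5SA libraries. The YAP5SA library of batch 2 had the lowest CM marker sum and the highest sum of nodal markers, at 182 CPM against 60.6 to 94.2 CPM in the other libraries. Of these 182 CPM, *Tbx18* alone held 149, and the other 6 nodal markers summed to 26.4 to 34.1 CPM in every library. In RNA from many nuclei, fewer cells of a type and less RNA per cell cannot be told apart. FDR is the Benjamini-Hochberg adjusted p of edgeR's quasi-likelihood test over all 13323 genes tested, with batch in the model, and a gene was called at FDR under 0.05.

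*Cacna1s*, the skeletal muscle L-type pore gene (ENSMUSG00000026407, GRCm38 chr1:136052750-136119822, plus strand), was the member with the widest range. With batch 1 given first, GFP libraries held 11 and 23 counts of its RNA, YAP6SA libraries held 6 and 19, and YAP5SA libraries held 386 and 1158. Both YAP5SA libraries therefore lay above every GFP and YAP6SA library, and the batch 2 library was the higher one in each group. The GFP level was 1.04 ± 0.653 CPM, the YAP6SA level 0.729 ± 0.599 CPM and the YAP5SA level 45.2 ± 27.8 CPM (mean ± SD of 2 libraries). YAP5SA libraries had 43.6-fold the GFP level (log2 fold change 5.45, SE 0.30, edgeR quasi-likelihood FDR 1.765e-05), and the log2 ratio was 5.47 in batch 1 and 5.43 in batch 2. Against YAP6SA the level was 64.0-fold (log2 fold change 6.0, SE 0.31, edgeR quasi-likelihood FDR 1.383e-05), with log2 ratios of 6.39 and 5.82. Without the YAP5SA library of batch 2, which had the lowest CM marker sum, the log2 fold change against GFP was 5.60. *Cacna1s* passed the filter through the YAP5SA group alone, so that it had to differ in order to be tested. Between YAP6SA and GFP its ranges overlapped, at a log2 fold change of -0.55 (SE 0.38, edgeR quasi-likelihood FDR 0.903).

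The 250 bases before the *Cacna1s* start of RefSeq were read because this member was called, and the stretch that lies outside annotated exons is shown, from base 250 to base 62 before the start (GRCm38.p6 chr1:136052561-136052749, plus strand). Capitals mark the letters GGAATG (the TEAD or MCAT motif) and CANNTG (the E-box), searched on both strands.

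Cacna1s promoter: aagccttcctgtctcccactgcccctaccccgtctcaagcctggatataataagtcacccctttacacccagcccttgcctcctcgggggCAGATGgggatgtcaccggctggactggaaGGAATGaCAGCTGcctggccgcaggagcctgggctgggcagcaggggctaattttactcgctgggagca

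GGAATG stood 130 to 125 bases before the start, and 1 base separated it from an E-box at 123 to 118 bases. A GGAATG was found in 12.6% of the 32851 RefSeq promoters of the same length and an E-box in 66.2%, and in 0.213% a GGAATG had an E-box no more than 1 base away, a spacing that was looked up after this sequence had been seen. Neither the AP-1 motif TGACTCA (4.46% of all promoters) nor the CArG box of SRF (1.47%) was in this window. The RefSeq table held 14 promoters of 8 member genes. Counted by promoter, as in the shares above, 2 of the 14 had the TEAD motif (*Cacna1s* and *Cacna2d2*) and 9 had an E-box. None had the AP-1 motif or the SRF box. Counted by gene, 2 of the 8 had the TEAD motif and 6 had an E-box in at least 1 promoter, which is not the unit of those shares. A match of letters is a description and not a site.

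*Cacnb2* (ENSMUSG00000057914, chr2:14603088-14987908, plus strand) encodes the beta subunit that predominates in the heart. Its level was 365 and 438 CPM in GFP, 529 and 446 CPM in YAP6SA, and 226 and 228 CPM in YAP5SA libraries. The YAP5SA libraries were the lowest, the YAP6SA libraries the highest, and none of the 3 groups overlapped. The level fell in YAP5SA libraries to 0.565-fold of GFP (log2 fold change -0.82, SE 0.18, edgeR quasi-likelihood FDR 0.0103), with log2 ratios of -0.69 and -0.94 in batches 1 and 2. Against YAP6SA it fell to 0.465-fold (log2 fold change -1.10, SE 0.18, edgeR quasi-likelihood FDR 0.00375), with log2 ratios of -1.23 and -0.97. Its difference between YAP6SA and GFP was not called, at a log2 fold change of 0.28 (SE 0.17, edgeR quasi-likelihood FDR 0.884), and came mainly from batch 1, where the log2 ratio was 0.54 against 0.02 in batch 2. The call against GFP was lost without the GFP library of batch 2 (log2 fold change -0.63, edgeR quasi-likelihood FDR 0.187), and the call against YAP6SA without the YAP6SA library of batch 1 (log2 fold change -0.90, edgeR quasi-likelihood FDR 0.0573). The 8 CM markers had a median log2 fold change of -0.76 between YAP5SA and GFP. Of these markers, 2 (*Pln* and *Ryr2*) were called lower, beside 9.18% of all genes. The part of the CM markers in the *Cacnb2* and *Cacna1c* values was not tested.

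RefSeq gave *Cacnb2* 2 promoters, of which 1 lies within an annotated exon. The other, from base 250 to base 67 before its start (GRCm38.p6 chr2:14823842-14824025, plus strand), is shown for comparison with that of *Cacna1s*, with E-boxes in capitals.

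Cacnb2 promoter: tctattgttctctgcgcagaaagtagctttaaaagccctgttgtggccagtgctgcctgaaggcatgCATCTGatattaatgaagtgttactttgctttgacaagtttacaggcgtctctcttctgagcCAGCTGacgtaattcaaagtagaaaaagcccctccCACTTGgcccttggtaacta

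The stretch shown held E-boxes at 183 to 178, 121 to 116 and 86 to 81 bases before the start, 1 more lay at 7 to 2 bases, and neither *Cacnb2* promoter held GGAATG.

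**Figure D1:**
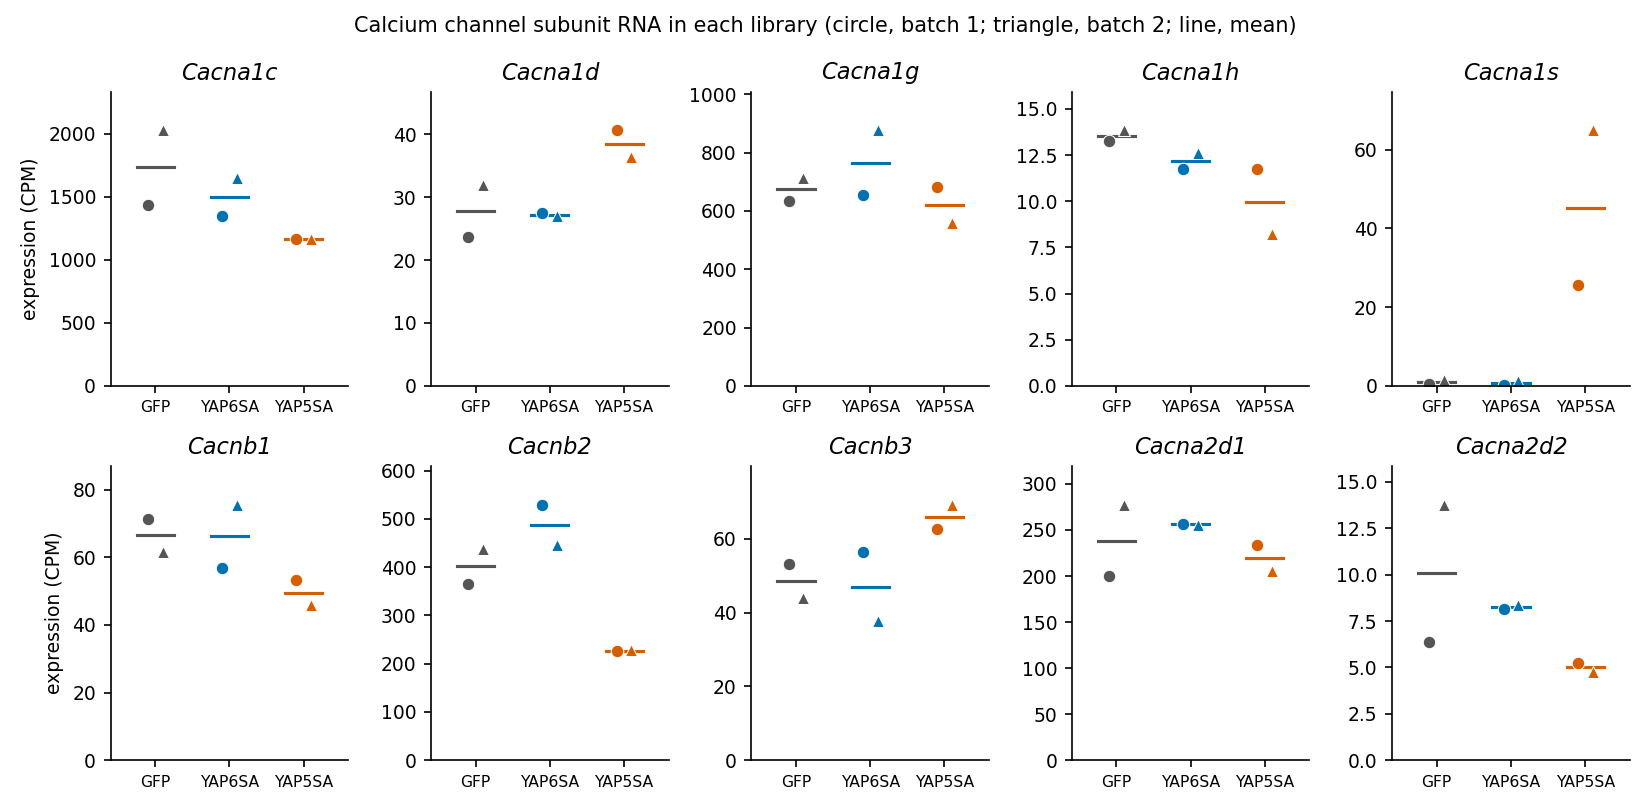
Level of each subunit gene in CPM (vertical axes start at 0 and differ between panels) in GFP, YAP6SA and YAP5SA libraries, with a circle for batch 1, a triangle for batch 2 and a line at the mean of the 2 libraries. *Cacna1s* was between 0.31 and 1.5 CPM in GFP and YAP6SA libraries but 25.6 and 64.9 CPM with YAP5SA, and *Cacnb2* was at 226 and 228 CPM with YAP5SA, under the other 4 libraries.

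*Cacna1c* (ENSMUSG00000051331, chr6:118587240-119196418, minus strand), the main L-type pore gene of the ventricle, was at 1439 and 2028 CPM in GFP, 1349.8 and 1650.5 CPM in YAP6SA, and 1166 and 1165 CPM in YAP5SA libraries. The YAP5SA libraries were the lowest, and GFP and YAP6SA overlapped. At 0.683-fold of GFP the YAP5SA level did not pass the threshold (log2 fold change -0.55, SE 0.20, edgeR quasi-likelihood FDR 0.0769), and the log2 ratio was -0.30 in batch 1 and -0.80 in batch 2. The same difference passed with edgeR's likelihood ratio test (FDR 0.0319), with DESeq2 (0.0212), with limma-voom (0.0497), with no filter on low counts (0.00601), and without the YAP5SA library of batch 1 (0.00228), so that the side of the threshold rested on the test, on the filter and on 1 library.

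*Cacna1d* (ENSMUSG00000015968, chr14:30039939-30491455, minus strand) encodes the L-type pore of atrial and pacemaker cells. It was at 23.7 and 31.9 CPM in GFP, 27.5 and 27.0 CPM in YAP6SA, and 40.6 and 36.4 CPM in YAP5SA libraries. Both YAP5SA libraries were above the other 4, and the difference from GFP was not called (log2 fold change 0.48, SE 0.20, edgeR quasi-likelihood FDR 0.116). Its log2 ratio was 0.78 in batch 1 and 0.19 in batch 2.

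The T-type pore gene *Cacna1g* (ENSMUSG00000020866, chr11:94408391-94474198, minus strand) was at 635 and 715 CPM in GFP, 656 and 877 CPM in YAP6SA, and 682 and 559 CPM in YAP5SA libraries. Its groups overlapped in every comparison. Its log2 fold change was -0.11 between YAP5SA and GFP (SE 0.20, edgeR quasi-likelihood FDR 0.727), and the log2 ratio was 0.10 in batch 1 and -0.35 in batch 2. Against YAP6SA it was -0.29 (SE 0.20, edgeR quasi-likelihood FDR 0.366), and this rested on which YAP5SA library was used, since it was called without that of batch 1 (-0.58, edgeR quasi-likelihood FDR 0.0133) and was 0.01 without that of batch 2. *Cacna1h* (ENSMUSG00000024112, chr17:25374285-25433783, minus strand), the other T-type pore gene, was at 13.2 and 13.8 CPM in GFP, 11.8 and 12.6 CPM in YAP6SA, and 11.7 and 8.24 CPM in YAP5SA libraries. GFP libraries were the highest, and the difference between YAP5SA and GFP was not called (log2 fold change -0.45, SE 0.26, edgeR quasi-likelihood FDR 0.25).

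*Cacnb1* (ENSMUSG00000020882, chr11:98001508-98023034, minus strand), the beta subunit gene of the skeletal muscle channel, was at 71.3 and 61.6 CPM in GFP, 56.9 and 75.6 CPM in YAP6SA, and 53.3 and 45.8 CPM in YAP5SA libraries. The YAP5SA libraries were the lowest. The log2 fold change against GFP was -0.43 (SE 0.19, edgeR quasi-likelihood FDR 0.129), with log2 ratios of -0.42 and -0.43 in the batches, and that against YAP6SA was -0.42, with -0.09 and -0.72. Without the YAP5SA library of batch 1 both differences were called (-0.58 and -0.57, edgeR quasi-likelihood FDR 0.0313 and 0.0364), and without the GFP library of batch 1 the first was -0.25. *Cacnb3* (ENSMUSG00000003352, chr15:98630840-98644529, plus strand), a beta subunit gene best known from neurons and smooth muscle, was at 53.0 and 44.1 CPM in GFP, 56.4 and 37.8 CPM in YAP6SA, and 62.6 and 69.3 CPM in YAP5SA libraries. Its YAP5SA libraries were the highest, and its differences were not called (log2 fold change 0.46 against GFP and 0.51 against YAP6SA, SE 0.19 for both, edgeR quasi-likelihood FDR 0.11 and 0.0981). Without the YAP5SA library of batch 1 these were called, at 0.74 and 0.80 (edgeR quasi-likelihood FDR 0.00367 and 0.00254).

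*Cacna2d1* (ENSMUSG00000040118, chr5:15934691-16374511, plus strand), the main alpha2delta subunit gene of heart and skeletal muscle, was at 199.6 and 278 CPM in GFP, 256 and 256 CPM in YAP6SA, and 234 and 205 CPM in YAP5SA libraries. GFP libraries spanned the values of both other groups, and the log2 fold change between YAP5SA and GFP was -0.11 (SE 0.18, edgeR quasi-likelihood FDR 0.711). *Cacna2d2* (ENSMUSG00000010066, chr9:107399612-107529343, plus strand), best known from the cerebellum, was at 6.36 and 13.8 CPM in GFP, 8.14 and 8.37 CPM in YAP6SA, and 5.23 and 4.76 CPM in YAP5SA libraries. Its YAP5SA libraries were the lowest, at a log2 fold change of -0.95 against GFP (SE 0.37, edgeR quasi-likelihood FDR 0.0932). The log2 ratio was -0.28 in batch 1 and -1.53 in batch 2, and the difference was called without the GFP library of batch 1 (-1.47, edgeR quasi-likelihood FDR 0.0349) and without the YAP5SA library of batch 1 (-1.28, FDR 0.019).

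Between YAP6SA and GFP, none of the 10 members was called by edgeR's quasi-likelihood test, by DESeq2 or by limma-voom. In the quasi-likelihood test 0 members had an unadjusted p under 0.05, beside 790 of the 13323 genes tested. Among all genes tested, 0.045% (6 genes) were called higher and 0% lower. The study reported more genes changed with YAP6SA at the same FDR threshold, and the number depended on the fit, as given below. The groups did not overlap for 2 members (*Cacna1h* and *Cacnb2*), and for 34.3% of all genes. The members' median log2 fold change was -0.04, beside 0.00 for all genes.

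Between YAP5SA and GFP, 1 member was called higher (*Cacna1s*) and 1 lower (*Cacnb2*), while 12.8% of all genes were called higher and 9.18% lower. The groups did not overlap for 8 members, that is, all but *Cacna1g* and *Cacna2d1*, and for 60.9% of all genes. In edgeR's quasi-likelihood test, 7 of the 10 members had an unadjusted p under 0.05, beside 4852 of the 13323 genes tested. A positive fold change was seen for 3 members, and the members' median log2 fold change was -0.27, beside -0.00 for all genes. With 1 library left out, the log2 fold change was -0.41 to 0.18 for *Cacna1g* and -0.38 to 0.18 for *Cacna2d1*, and the other members kept their sign. The number called depended on the library left out, as it did for all genes. A group of 1 library gives no spread of its own. Because the members were selected with these comparisons known, nothing is read from their counts against the shares of all genes.

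Between YAP5SA and YAP6SA the same 2 members were called, *Cacna1s* higher and *Cacnb2* lower, beside 9% of all genes called higher and 5.68% called lower. The groups did not overlap for 9 members, all but *Cacna1g*, and for 57.6% of all genes, and the median log2 fold change was -0.29, beside -0.01. Each group enters 2 of the 3 comparisons, which are therefore not independent.

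**Figure D2:**
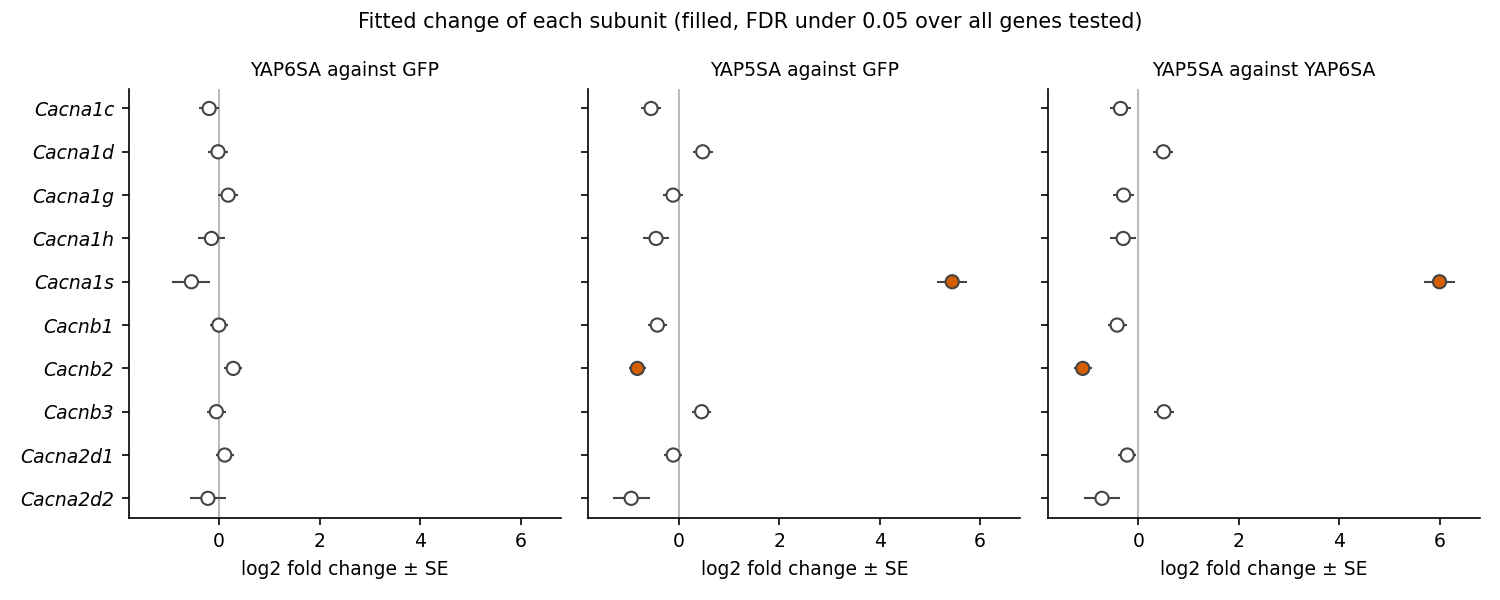
Fitted log2 fold change of each subunit gene (horizontal axis, bars show the SE) between YAP6SA and GFP, YAP5SA and GFP, and YAP5SA and YAP6SA, with filled points for FDR under 0.05 in edgeR's quasi-likelihood test over all genes tested. Filled points are seen for *Cacna1s* (5.45 and 6.0) and *Cacnb2* (-0.82 and -1.10) in the YAP5SA comparisons, and for no member between YAP6SA and GFP.

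Levels of different genes were compared per length, as CPM per kb of the gene's exons. In GFP the order was *Cacna1c* (81.8 ± 19.6 CPM per kb, mean ± SD, n = 2 libraries), *Cacna1g* (66.6 ± 5.58), *Cacnb2* (30.4 ± 3.90), *Cacna2d1* (19.2 ± 4.44), *Cacnb1* (14.7 ± 1.51), *Cacnb3* (12.1 ± 1.58), *Cacna1d* (2.20 ± 0.463), *Cacna1h* (1.39 ± 0.0431), *Cacna2d2* (1.27 ± 0.660) and *Cacna1s* (0.159 ± 0.0997). Among neighbours in this order, the libraries of *Cacna1c* and *Cacna1g* overlapped, as did those of *Cacna1h* and *Cacna2d2*. In YAP5SA libraries *Cacna1s* (6.91 ± 4.25 CPM per kb) had passed *Cacna1d* (3.05 ± 0.237), *Cacna1h* (1.02 ± 0.252) and *Cacna2d2* (0.629 ± 0.0418), and *Cacna2d1* (17.7 ± 1.64), *Cacnb2* (17.2 ± 0.122) and *Cacnb3* (16.4 ± 1.18) overlapped. *Cacna1s* thus moved from the last place to the seventh, still under *Cacna1c*, which was at 55 ± 0.0182 CPM per kb. Per kb of the longest transcript *Cacna1s* took the same places, but its YAP5SA libraries (4.09 and 10.4 CPM per kb) overlapped those of *Cacna1d* (4.20 and 3.77). On that length *Cacnb2* (44.9 and 45.4), *Cacna2d1* (31.5 and 27.6) and *Cacnb3* (22.9 and 25.3) did not overlap, and neither did *Cacna1c* and *Cacna1g* in GFP, so that the order of such neighbours depends on the length used. The ratio of *Cacna1c* to *Cacna1s* per kb was 769 and 417 in GFP, 1367 and 443 in YAP6SA, and 14.1 and 5.55 in YAP5SA libraries.

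Within a library, the share of each gene in its subunit class needs no scaling between libraries. With 2 libraries against 2, an exact permutation test cannot give a two-sided p under 0.333, so that no test is given. *Cacnb2* made up 48.4% and 56.6% of the beta subunit RNA per kb in GFP, 59.7% and 55.8% in YAP6SA, and 38.0% and 38.0% in YAP5SA libraries. *Cacnb3* made up 23.2% and 18.8% in GFP, 21.0% and 15.6% in YAP6SA, and 34.7% and 38.0% in YAP5SA libraries. The YAP5SA libraries thus lay outside the range of the other 4 for both genes, and the ratio of *Cacnb2* to *Cacnb3* per kb was 2.09 and 3.01 in GFP but 1.09 and 0.998 in YAP5SA libraries. The level of these shares depends on the length used, which differs most for *Cacnb2* (13228 bases of exons, 5030 in the longest transcript). With the longest transcript, *Cacnb2* had 67.6% in GFP and 53.4% in YAP5SA, and *Cacnb3* 15.1% and 28.5%. *Cacnb1* was at 18.8% to 27.6% in all 6 libraries, and *Cacnb4* at 0.525% to 1.69%. Summed over the beta subunit genes, the level was 56.6 and 57.7 CPM per kb in GFP, 66.7 and 59.8 in YAP6SA, and 44.5 and 44.6 in YAP5SA libraries.

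Of the L-type and T-type pore RNA per kb, *Cacna1s* was 0.0660% and 0.135% in GFP, 0.0354% and 0.105% in YAP6SA, and 2.99% and 8.01% in YAP5SA libraries. *Cacna1c* was 50.7% and 56.2% in GFP, 48.3% and 46.4% in YAP6SA, and 42.1% and 44.4% in YAP5SA libraries, and *Cacna1g* was 41.4% to 51.5% in all 6 libraries. These shares also depend on the length used, as *Cacna1c* has 21191 bases of exons and 13162 in its longest transcript. With the longest transcript, *Cacna1c* had 49.3% to 63.0% and *Cacna1g* 34.9% to 45.3% over the 6 libraries. On that length *Cacna1c* lay above *Cacna1g* in every library, and the highest share of *Cacna1s* was 6.09%. The L-type pores summed to 69.9 and 98.5 CPM per kb in GFP, 65.9 and 80.2 in YAP6SA, and 62.1 and 67.8 in YAP5SA libraries, so that YAP5SA overlapped YAP6SA and lay under GFP. The T-type pores summed to 64.0 and 71.9 CPM per kb in GFP and to 68.5 and 55.98 in YAP5SA libraries, which overlapped. *Cacna2d1* was 91.6% to 95.7% of the alpha2delta RNA per kb in every library.

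**Figure D3:**
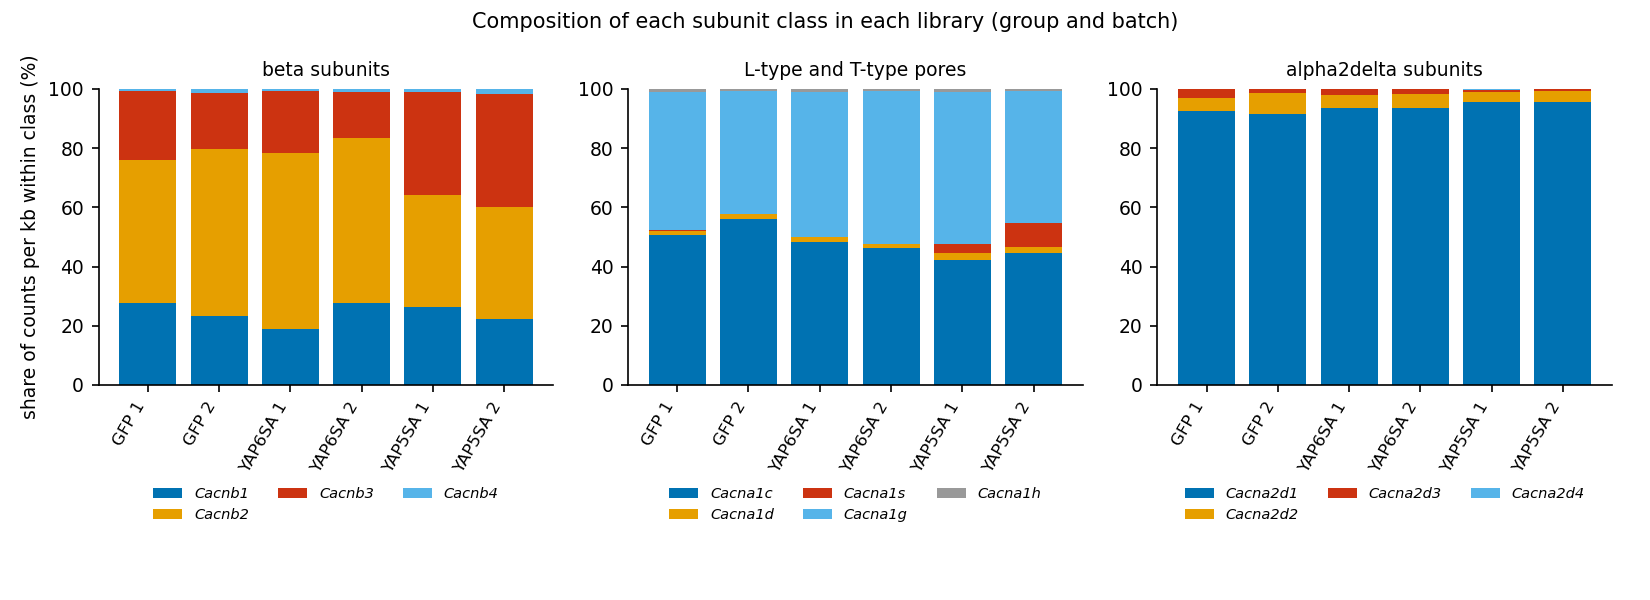
Share of each gene (%) in the summed counts per kb of its class, stacked for each of the 6 libraries (group and batch), for beta subunits, L-type and T-type pores and alpha2delta subunits. *Cacnb2* took 48.4% to 59.7% of the beta class in GFP and YAP6SA libraries and 38.0% in both YAP5SA libraries, where *Cacnb3* took 34.7% and 38.0%.

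Of the 16 other genes of the channel family, 3 passed the filter. *Cacna1a*, a pore gene of neurons, was at 20.03 and 18.3 CPM in GFP, 19.8 and 20.7 CPM in YAP6SA, and 77.8 and 104 CPM in YAP5SA libraries. It rose in YAP5SA libraries (log2 fold change 2.23 against GFP and 2.16 against YAP6SA, SE 0.19 for both, edgeR quasi-likelihood FDR 0.000182 and 0.000234). *Cacna2d3*, an alpha2delta gene of neurons, was counted 85 and 42 times in GFP, 69 and 51 times in YAP6SA, and 19 and 22 times in YAP5SA libraries, and fell against GFP (log2 fold change -1.5, SE 0.47, edgeR quasi-likelihood FDR 0.0453). *Cacnb4* was at 3.63 and 6.99 CPM in GFP and 4.70 and 6.89 CPM in YAP5SA libraries, with no call (log2 fold change 0.17, edgeR quasi-likelihood FDR 0.761). The gamma subunit of the skeletal muscle channel, *Cacng1*, had 0 to 3 counts in every library, which is no more than a count of 0 allows. *Cacng6*, its close relative, had 11 and 14 counts in GFP, 20 and 15 in YAP6SA, and 3 and 8 in YAP5SA libraries, and was under the filter.

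Among 20 genes of the dyad and triad, the calcium release and uptake machinery that the channel faces, 16 were tested. Between YAP5SA and GFP, 2 rose and 6 fell, beside 12.8% and 9.18% of all genes, and the median log2 fold change was -0.46, beside -0.00 for all genes. *Ryr2*, the cardiac ryanodine receptor, was at 1660 and 2034 CPM in GFP, 2022 and 1808 CPM in YAP6SA, and 1352 and 814 CPM in YAP5SA libraries, and fell (log2 fold change -0.81, SE 0.25, edgeR quasi-likelihood FDR 0.0455). *Asph*, the gene of junctin and junctate (-1.33), *Tcap*, the titin cap of the Z-disc and T-tubule (-1.05), *Pln*, the inhibitor of the calcium pump (-1.04), and the luminal calcium binders *Srl* (-0.80) and *Hrc* (-0.78) fell as well. All 6 were lower in both batches and more so in batch 2, as for *Ryr2*, with log2 ratios of -0.30 and -1.32. *Ryr2* and *Pln* are also among the 8 CM markers, of which 0 had a positive fold change (median log2 fold change -0.76), and the part of the CM markers in these falls was not tested. *Casq1*, the calsequestrin of fast skeletal muscle (1.16), and *Ryr3*, a ryanodine receptor of brain and developing muscle (1.13), rose. *Ryr1*, the partner of *Cacna1s* in skeletal muscle, had 1 to 3 counts in every library. With 1 library left out, the median log2 fold change of the 16 genes against GFP was -0.76 to -0.21. The number called depended on the library left out, as it did for all genes. Against YAP6SA the same 6 fell and 3 rose (*Casq1* 1.35, *Ryr3* 1.26 and *Trdn* 0.56), beside 5.68% and 9% of all genes. In this comparison the median log2 fold change was -0.77 to -0.26 with 1 library left out, and the number called again depended on the library. Between YAP6SA and GFP, 0 of the 16 were called by edgeR's quasi-likelihood test. In that test 1 had an unadjusted p under 0.05, beside 790 of the 13323 genes tested.

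Of 32 channel regulators, 28 were tested, and 7 rose and 1 fell between YAP5SA and GFP, beside 12.8% and 9.18% of all genes. Their median log2 fold change was 0.10, beside -0.00 for all genes. With 1 library left out, this median was 0.075 to 0.25, and the number called depended on the library left out, as it did for all genes. *Akap5*, an anchor of protein kinase A at the L-type channel, was at 0.32 and 0.33 CPM in GFP, 0.61 and 0.61 CPM in YAP6SA, and 1.39 and 3.14 CPM in YAP5SA libraries (log2 fold change 2.72, SE 0.65, edgeR quasi-likelihood FDR 0.0162), and it too passed the filter through the YAP5SA group alone. *Calm3*, a calmodulin gene (1.02), *Cav3*, the muscle caveolin (0.98), *Camk2a*, a calcium-dependent kinase (0.70), and *Ahnak*, a scaffold that binds the beta subunit (0.70), rose also, and *Ppp2r5a*, a regulatory subunit of protein phosphatase 2A, fell (-0.67). *Rrad*, the G protein that holds the L-type channel back through its beta subunit, was at 646 and 710.5 CPM in GFP, 734 and 510.1 CPM in YAP6SA, and 509.6 and 401 CPM in YAP5SA libraries, with no call (log2 fold change -0.60, SE 0.20, edgeR quasi-likelihood FDR 0.0556). *Stac3*, the adaptor that the skeletal muscle channel needs, was at 5.05 and 9.53 CPM in GFP and 8.74 CPM in both YAP5SA libraries, with no call (log2 fold change 0.30, edgeR quasi-likelihood FDR 0.539). Against YAP6SA, 3 regulators rose (*Ppp3ca* 0.97, *Camk2a* 0.72 and *Ahnak* 0.70) and 0 fell, beside 9% and 5.68% of all genes. In this comparison the median log2 fold change was 0.0087 to 0.12 with 1 library left out, and the number called again depended on the library. Between YAP6SA and GFP, 0 of 28 were called by edgeR's quasi-likelihood test. In that test 4 had an unadjusted p under 0.05, beside 790 of the 13323 genes tested.

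**Figure D4:**
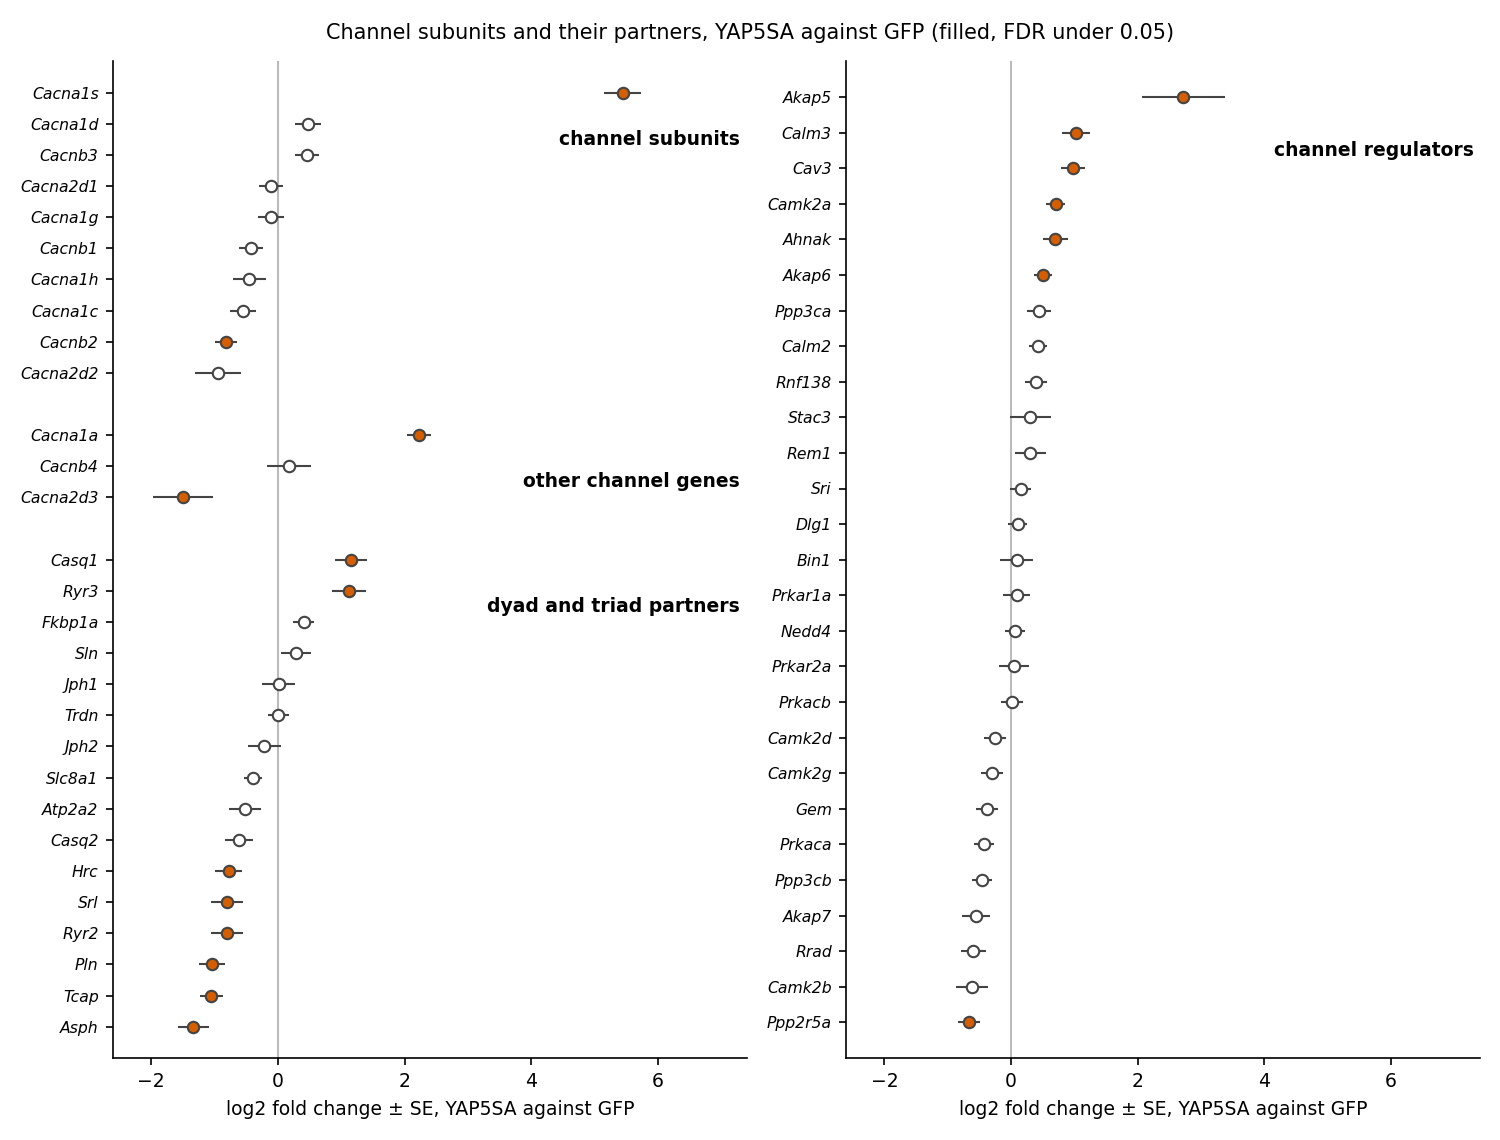
Fitted log2 fold change with its SE between YAP5SA and GFP for the 10 subunit genes, 3 other channel genes, 16 dyad and triad partners and the regulators that were tested, 1 of which is left out, with filled points for FDR under 0.05 (edgeR quasi-likelihood). *Cacna1s* (5.45), *Akap5* (2.72) and *Cacna1a* (2.23) had the largest positive changes shown, and *Cacna2d3* (-1.5) and *Asph* (-1.33) the largest negative ones.

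Markers of other cells were read in the same libraries, since *Cacna1s* is known from skeletal muscle, *Cacna1d* from atrial and nodal cells, *Cacnb3* from smooth muscle and *Cacna1a* and *Cacna2d3* from neurons. The 10 skeletal muscle markers summed to 53.5 and 65.6 CPM in GFP, 108 and 91.7 CPM in YAP6SA, and 76.2 and 29.6 CPM in YAP5SA libraries, and 4 of them (*Myod1*, *Myf6*, *Pax7* and *Tnnc2*) had 0 counts in every library. Most of this sum was *Ckm*, the muscle creatine kinase. The other 9 markers summed to 3.68 and 4.44 CPM in GFP, 5.90 and 4.36 CPM in YAP6SA, and 7.68 and 6.11 CPM in YAP5SA libraries, which were the highest. *Ckm* was at 102 and 87.3 CPM in YAP6SA and 68.6 and 23.5 CPM in YAP5SA libraries, and fell between them (log2 fold change -1.14, SE 0.34, edgeR quasi-likelihood FDR 0.0489), and 2 others that were tested, *Tnnt3* and *Tnni2*, were not called in either YAP5SA comparison. *Myog*, a regulator of skeletal muscle differentiation, had 0 counts in all 4 GFP and YAP6SA libraries but 19 and 52 with YAP5SA, which was under the filter. The 6 atrial markers summed to 470 and 374 CPM in GFP, 529.6 and 463 CPM in YAP6SA, and 679 and 699 CPM in YAP5SA libraries. Of these, 4 (*Bmp10*, *Myl4*, *Myl7* and *Nppa*) rose between YAP5SA and GFP. In that comparison 12.8% of all genes were called higher and 9.18% lower, which are also the shares beside the nodal, smooth muscle and macrophage counts below. Of the 7 nodal markers, 4 were tested and 1 (*Tbx18*) rose, at 64.5 and 149 CPM in YAP5SA against 42.0 and 40.9 CPM in GFP libraries. The 8 smooth muscle and mural markers summed to 460 and 535 CPM in GFP and 404 and 325 CPM in YAP5SA libraries, and of 7 tested, 2 rose (*Cnn1* and *Myh11*) and 1 fell (*Abcc9*). Without *Abcc9*, the other 7 summed to 189 and 147 CPM in GFP and 189 and 169 CPM in YAP5SA libraries. The 8 macrophage markers summed to 65.9 and 94.1 CPM in GFP, 81.6 and 110 CPM in YAP6SA, and 95.5 and 141 CPM in YAP5SA libraries, and all 7 tested were positive between YAP5SA and GFP, where 2 rose (*C1qa* and *Lyz2*). Of the 8 neuron and glia markers, 7 were under the filter, and these summed to 0.631 to 1.89 CPM in the 6 libraries. None of the 8 fibroblast, 8 endothelial and 2 tested erythroid markers was called in any comparison by edgeR's quasi-likelihood test. In that test, 3 fibroblast, 0 endothelial and 0 erythroid markers had an unadjusted p under 0.05 between YAP5SA and GFP, beside 4852 of the 13323 genes tested. Between YAP6SA and GFP the numbers were again 3, 0 and 0, beside 790 genes. There 8 fibroblast, 6 endothelial and 0 erythroid markers were positive, and the fibroblast markers had a median log2 fold change of 0.32, beside 0.00 for all genes. The fibroblast markers summed to 1367 and 860 CPM in GFP, 1777 and 984 CPM in YAP6SA, and 1496 and 906 CPM in YAP5SA libraries. The endothelial markers summed to 612 and 479 CPM in GFP, 712 and 492 CPM in YAP6SA, and 631 and 494 CPM in YAP5SA libraries. Both sums were higher in batch 1 in every group. The part of all these cells in the subunits' levels was not tested.

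Over the 6 libraries, genes whose log2 CPM followed that of *Cacna1s* most closely among 13322 others included *Cchcr1* (Pearson r = 0.9977), *Uhrf2* (0.9975), *Mcm10* (0.9963) and *Usp24* (0.9949). Those closest to *Cacna1c* included *Usp53* (0.999), *Mdm4* (0.9958), *Polb* (0.994) and *Clcn7* (0.9907). The 6 points share their groups and batches, and these are descriptions of 6 libraries.

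Reads could be shared with overlapping genes, since the libraries did not keep strand. Exons of *Cacna1s* share 1309 bases with the antisense gene *Gm37759*, which had 9 counts over all libraries beside 1603 for *Cacna1s*. Exons of *Cacna1d* share 589 bases with *Chdh* (17 counts beside 3186), and those of *Cacna1h* 158 bases with *Tpsg1* (13 beside 1227). Those of *Cacnb2*, with 38907 counts, share 618 bases with *Gm10849* (0 counts), 239 with *Gm13269* (12) and 111 with *Gm10848* (2). *Cacnb1* shares 80 bases with *Gm11629* (3 beside 6289), and *Cacna2d2* 82 with *Gm17141* (0 beside 794). The deposited table sets reads that fit more than 1 gene apart from the gene counts, so that reads in shared bases may be missing from a member's count.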

How the data were processed

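Poly-A RNA of PCM1-bound CM nuclei was sequenced as 6 non-directional libraries. The authors aligned the reads with STAR to mm10 (Ensembl GRCm38.94) and deposited the raw gene counts, neither normalised nor filtered. The version of STAR and the counting settings are not given in the sources used here. Rows that name no gene (unmapped, multimapping, outside genes or ambiguous) held 22.0% to 23.4% of reads and were left out. Of 54532 genes, 54495 were named from GENCODE M21.

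Genes with a median log2 CPM over 1 in at least 1 group were kept (13323), as in the methods of the study. A quasi-likelihood model with terms for group and batch was then fitted to all 6 libraries (edgeR 4.0.16 in R 4.3.3, TMM factors). The SE of a fitted change was derived from its test, as the absolute log2 fold change divided by the square root of the F statistic. Alternatives used DESeq2 1.42.0 and limma 3.58.1. CPM per kb used the union of a gene's exons, and log2 CPM for correlations a prior count of 2. The labels give each library a batch, which equals its replicate number and pairs the libraries. Deviations from the group means correlated within a batch at 0.368 (GFP and YAP6SA), 0.0985 (GFP and YAP5SA) and 0.175 (YAP6SA and YAP5SA). The labels give hearts but not whether libraries came from single hearts, so that p-values measure the spread between these libraries. The 2 libraries of a group were not copies of each other, with a chi-square of 27.7 to 43.6 for each degree of freedom.

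The members, the lists of other channel genes, regulators, dyad and triad partners and markers, and the motifs were chosen with earlier results of these data known. From each list the genes named were, per comparison, up to 5 called in each direction with the largest change, plus *Cacnb4*, *Cacng1*, *Cacng6*, *Ryr1*, *Ryr2*, *Stac3* and *Rrad*. Single markers were named after their values were seen. The medians of partners and regulators with a library left out, the marker sums without 1 gene and the levels per longest transcript were added then. For *Cacna1s* and *Cacna1c* genes were named from the 5 with the highest Pearson r. A few genes of these lists are not reported here. Promoters of the members called were taken from RefSeq (GRCm38.p6).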

Additional observations from a re-analysis of the deposited data

How the results depend on the processing

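With 2 libraries a group, small differences of the subunits are limited by the spread between libraries, and the level of *Cacna1s* outside YAP5SA (6 to 23 counts) also by depth. *Cacna1s* was called higher in both YAP5SA comparisons under 8 of 8 alternative fits that tested it. It passed the main filter through the YAP5SA group alone, so that these calls are a description. With any 1 of the 6 libraries left out, its log2 fold change was 5.36 to 5.60 against GFP and 5.81 to 6.35 against YAP6SA. *Cacnb2* was called lower under 9 of 9 alternative fits and in 5 of 6 fits with a library left out, at -0.996 to -0.63 and -1.29 to -0.90. The other 8 members were not called under scaling by DESeq2 size factors or upper quartiles, without the batch as a block, or in the 4 libraries compared.

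With at least 10 counts required in every library *Cacna1s* was not tested, so that 0 members were called higher in either YAP5SA comparison. Members called lower between YAP5SA and GFP numbered 3 with no filter on low counts and 2 with the likelihood ratio test, DESeq2 or limma-voom. With a library left out, the number of members called changed in both YAP5SA comparisons, as did that of all genes. Between YAP6SA and GFP the 10 members stayed uncalled in all of these fits.

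Batch is the block that pairs the libraries. With no replicate block, the same counts of members were called (1 higher and 1 lower), while all genes called numbered 1331 higher and 759 lower between YAP5SA and GFP, 851 and 301 between YAP5SA and YAP6SA, and 0 and 0 between YAP6SA and GFP. All genes called between YAP6SA and GFP, 6 higher and 0 lower, numbered 109 and 36 with no filter, 54 and 28 with the likelihood ratio test, 40 and 15 with DESeq2, and 198 and 78 in the 4 libraries compared, and the cause was not tested. Those lower between YAP5SA and YAP6SA, 757, numbered 1161 with no filter and 1155 with the likelihood ratio test. With a library left out, all genes called numbered 560 to 2581 higher and 178 to 2282 lower between YAP5SA and GFP, 328 to 2206 and 68 to 1954 between YAP5SA and YAP6SA, and 6 to 156 and 0 to 57 between YAP6SA and GFP. The lowest counts came without GFP or YAP6SA replicate 2 and the highest without YAP5SA replicate 1 for the YAP5SA comparisons.

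Between YAP5SA and GFP, the mean share of *Cacnb2* in its class differed by -14.6 percentage points, that of *Cacna1c* by -10.2 and that of *Cacna2d1* by 3.65. With a library left out these were -18.7 to -10.5, -12.9 to -7.47 and 3.23 to 4.07, and without length scaling the difference of *Cacna2d1* was 2.51.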
